A study of Mus musculus with 4 samples.

Results

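Integrins are the receptors with which cells hold on to their matrix, and the integrin subunits and focal adhesion proteins were examined in adult mesenchymal stromal cells (MSCs) of the bone marrow. Members were every gene of the count table whose symbol names an integrin α or β subunit, together with 14 cytoplasmic proteins that link integrins to actin. This gave 40 of 56980 genes, namely 18 α subunits, 8 β subunits and the 14 focal adhesion proteins. The data were 4 RNA-seq libraries, 1 from each of 4 male wild-type C57BL/6J mice aged 14 weeks, from a strain kept as an in-house inbred colony for 30 years. The sort took PDGFRa+ CD51+ Sca1- cells and left out blood and endothelial cells by CD45, Ter119 and CD31, and each library was made from a small pool of cells by oligo-dT priming and amplification. All mice belong to 1 group, so nothing was compared between conditions, and spreads are those between mice. CD51 is the product of Itgav, which makes the presence of that transcript a property of the sort and no finding.

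An integrin is a pair of 1 α and 1 β subunit, and the pair decides which matrix protein is bound. The short cytoplasmic tail of the β subunit is held by talin and kindlin, which switch the receptor into its binding state, and by the complex of integrin-linked kinase (ILK), PINCH and parvin. Vinculin, paxillin, zyxin and focal adhesion kinase join this site and connect it to actin and to signaling. In bone, integrins anchor osteoblast-lineage cells to collagen and to the acidic proteins of mineralized matrix, and adhesion molecules of the stroma hold blood progenitors in the marrow.

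The libraries held between 22738604 and 43545349 counts on genes, and between 26 and 27 of the 40 members had at least 1 count in a library. Levels are given as TPM, the count of a gene divided by the length of its exons and scaled to 1000000 per library, so that genes can be compared with each other. A gene was called above the cutoff when its median over the 4 mice was over 1 TPM. A library of pooled cells measures RNA only, so that fewer cells with a transcript and less transcript per cell cannot be told apart, and no TPM shows that a pair was assembled. The labelled identity was checked with marker genes. Lists of osteoblast and marrow stroma genes were above the cutoff in full (5 of 5 and 6 of 6), whereas none of 6 endothelial, 5 smooth muscle and 6 epithelial markers was. The osteoblast genes summed to 109000, 133700, 77830 and 168100 TPM in mice 1 to 4, of which most was Bglap. The marrow stroma genes summed to 1091, 4580, 2345 and 1236 TPM. Pdgfra of the stroma list, Pecam1 (CD31) of the endothelial list and Ptprc (CD45) of the leukocyte list encode antigens of the sort. The levels of these genes are therefore no independent check. Of 11 leukocyte markers, 2 were above the cutoff, the neutrophil genes S100a8 and S100a9 with medians of 4.071 and 3.401 TPM, and Csf1r, Adgre1, C1qa and Cd3e had 0 counts in every mouse. Their sum was 32.9, 19.69, 4.095 and 9.562 TPM in mice 1 to 4, which in mouse 1 included Elane with 15.08 TPM and Spi1 with 2.236 TPM. All 6 erythroid markers, hemoglobin and other erythroid genes, were above the cutoff and summed to 4980, 35.04, 1708 and 358.3 TPM in mice 1 to 4.

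Of the 40 members, 17 (42.5%) were above the cutoff, against 22.9% of all 52125 genes with a length and 44.2% of the protein-coding genes. The share among members was therefore near that of protein-coding genes as a whole. By role, the cutoff was passed by 5 of 18 α subunits, 3 of 8 β subunits and 9 of 14 focal adhesion proteins. In every mouse the level was over 1 TPM for 13 of the 40 members, a rule that 30.1% of the protein-coding genes met. At the other end, 10 members had no more than 3 counts in any mouse. Of these, Itga2b, Itgad, Itgam, Itgax and Itgb2 had 0 counts in all of them.

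**Figure D1:**
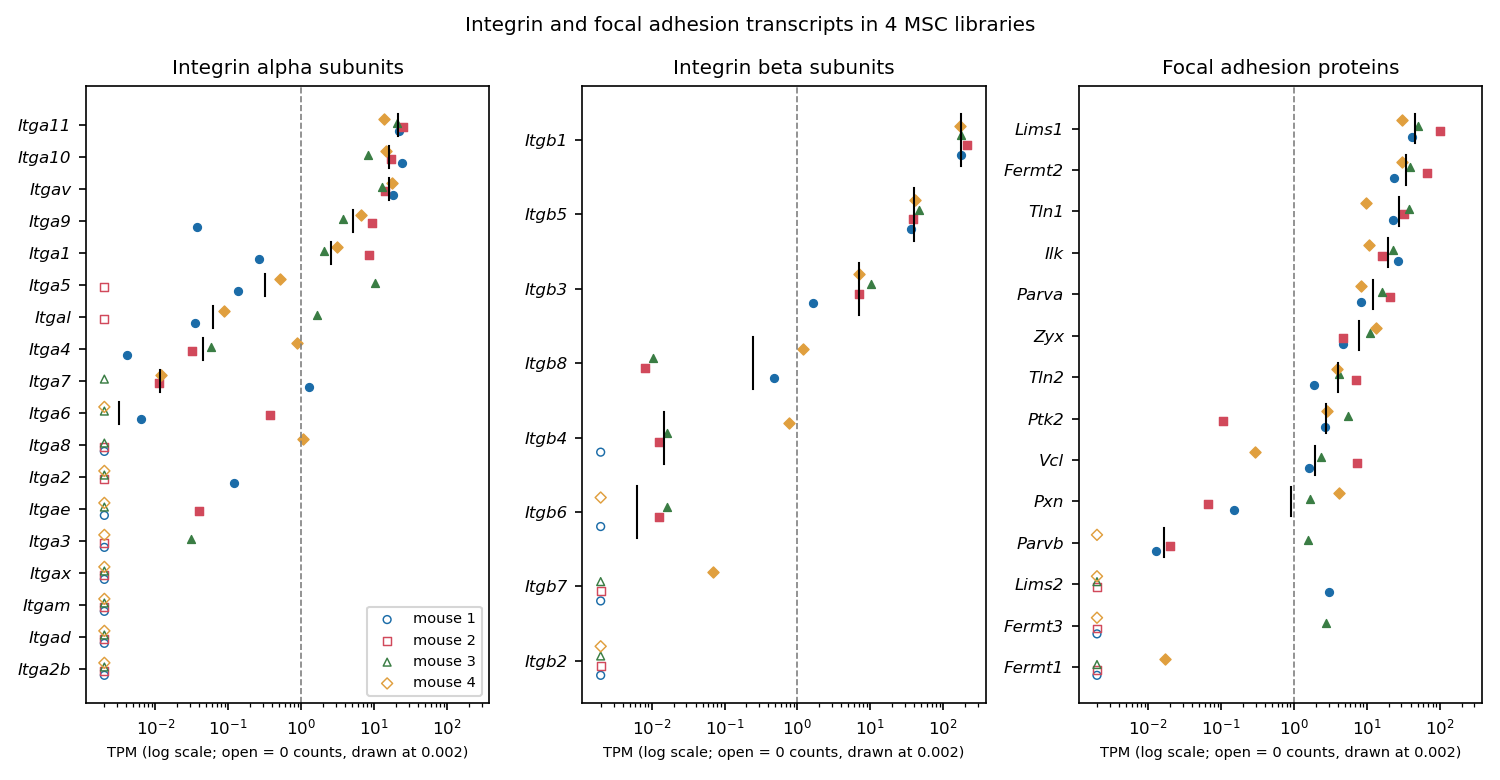
TPM of each of the 40 members in the 4 mice on a log scale, with 1 symbol per mouse, a bar at the median and a dashed line at the cutoff of 1 TPM. Open symbols mark 0 counts and are drawn at a fixed place at the left. Itgb1 and Itgb5 lie apart from the other β subunits with their 4 mice close together, while many α subunits are spread over several powers of 10.

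The β subunits were led by Itgb1, the common partner of the largest group of α subunits. Itgb1 (ENSMUSG00000025809, GRCm38 chromosome 8, from 128685654 to 128733200, plus strand, 16 exons) had 175.4, 214, 174.9 and 169.7 TPM in mice 1 to 4 (183.5 ± 20.49, mean ± SD, n = 4 mice). Mouse 2 was the highest and the others lay between 169.7 and 175.4 TPM. Its median was higher than that of 98.9% of all genes with a length. Itgb5, which pairs with αV to bind vitronectin and osteopontin, had 36.51, 37.9, 46.13 and 40.96 TPM. Itgb3, the other αV partner and the β subunit of the platelet receptor, had 1.657, 6.961, 10.31 and 7.084 TPM. The levels of these 3 β subunits did not overlap across mice. Itgb3 is also the main β subunit of osteoclasts, and the 6 osteoclast markers summed to 682.6, 273.6, 548 and 355.1 TPM, of which most was Ctsk. Of the list, Ctsk and Acp5 were above the cutoff, the latter with 79.16, 0, 48.18 and 7.579 TPM, Ocstamp had 53 counts in mouse 1 only, and Dcstamp had 0 counts in every mouse. The part of osteoclasts in the level of Itgb3 was not tested. For Itgb5, 10.5% of the longest transcript has a near-identical copy in Gm38317. Itgb1 exceeded Itgb5 by 2.16 ± 0.25 and Itgb5 exceeded Itgb3 by 2.64 ± 0.80 in log2(TPM + 1), in 4 of 4 mice each. For each pair an exact sign-flip permutation test gave p = 0.125 (two-sided, adjusted p = 0.163 over 13 comparisons), the smallest value that 4 mice allow.

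The other 5 β subunits had medians under 1 TPM. Itgb8, which binds latent TGFβ as αVβ8, had 94, 1, 2 and 135 counts, so that only mouse 4 was over 1 TPM, with 1.181 TPM. Itgb4, the β subunit of hemidesmosomes, had 0, 1, 2 and 56 counts. Itgb6, an epithelial subunit, and Itgb7, a lymphocyte subunit, never exceeded 2 counts, and Itgb2, the β subunit shared by the leukocyte integrins, had none. As parts of the summed β subunit TPM of each mouse, Itgb1 made up 79.35 ± 3.482%, Itgb5 17.57 ± 2.28% and Itgb3 2.785 ± 1.531% (SD, n = 4). The share of Itgb1 was 81.95, 82.66, 75.59 and 77.22% in mice 1 to 4.

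Among the α subunits, the collagen receptor subunits Itga11 and Itga10 stood beside Itgav at the top. Itga11 (ENSMUSG00000032243, GRCm38 chromosome 9, from 62677826 to 62783982, plus strand, 30 exons), whose product binds fibrillar collagen in mesenchymal cells, had 21.95, 24.95, 20.62 and 13.79 TPM. Itga10 (ENSMUSG00000090210, GRCm38 chromosome 3, from 96645584 to 96664519, plus strand, 30 exons), best known from cartilage, had 24.08, 17.16, 8.235 and 14.8 TPM. Itgav (ENSMUSG00000027087, GRCm38 chromosome 2, from 83724397 to 83806916, plus strand, 30 exons), the subunit of the RGD-binding receptors, had 18.13, 14.31, 12.89 and 17.48 TPM. These 3 levels overlapped and their order was not the same in every mouse. Itga11 exceeded Itga10 by 0.38 ± 0.64 in log2(TPM + 1), in 2 of 4 mice (p = 0.5 in the exact permutation test, adjusted 0.542). Itga10 and Itgav differed by -0.04 ± 0.45. Of the exonic bases of Itga10, 33.5% also belong to Gm42957, a gene annotated on the same strand. Divided by its unshared bases only, the same counts gave 23.15 ± 9.509 TPM, which places Itga10 above Itga11 on average. The counts themselves were not restricted to these bases. The 5 chondrocyte markers summed to 375.7, 233.6, 226.5 and 218.9 TPM, with mouse 1 the highest as for Itga10. Of these, 3 of 5 were above the cutoff, most of the sum was Col11a2, and Acan had 0 counts in mice 2 and 3. By gene, Col11a2, Sox9, Matn3 and Acan were highest in mouse 1. Col9a1 was highest in mouse 3, with 12.22 TPM against 1.817 TPM in mouse 1. Col2a1, a cartilage collagen outside this list, was highest in mouse 4, with 394.9 TPM against 208.5 TPM in mouse 1. The part of cartilage cells in the level of Itga10 was not tested.

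Itga9, the receptor subunit for tenascin and osteopontin, and Itga1, a collagen IV receptor subunit, followed at a lower level. Itga9 had 0.03695, 9.268, 3.792 and 6.58 TPM, and Itga1 had 0.2628, 8.641, 2.072 and 3.143 TPM. Mouse 1 was the lowest and mouse 2 the highest for both, with 5 counts of Itga9 in mouse 1 and 793 in mouse 2. Itga9 and Itga1 differed from each other by less than their spread (0.33 ± 0.52), while Itgav was above Itga9 in 4 of 4 mice, by 1.90 ± 1.59. Itga11 exceeded Itga1, the other broadly used collagen receptor subunit, with a difference of 2.57 ± 1.23 seen in 4 of 4 mice (p = 0.125 in the exact permutation test, adjusted 0.163).

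The remaining 13 α subunits had medians under 1 TPM. Itga5, the fibronectin receptor subunit, had 12, 0, 885 and 26 counts, which put mouse 3 at 10.38 TPM and the others under 1 TPM. Itgav exceeded it in 4 of 4 mice, by 2.98 ± 1.80 (exact permutation test, p = 0.125, adjusted 0.163), and in mouse 3 the difference was 0.29. Itga4, the α subunit of the VCAM1 receptor VLA-4 of blood cells, had 1, 5, 14 and 127 counts, and Itga8, the nephronectin receptor subunit, had 80 counts in mouse 4 and 0 elsewhere. The laminin receptor subunits Itga3, Itga6 and Itga7 together reached 1.292, 0.3896, 0.03041 and 0.01196 TPM, and most of the value of mouse 1 was Itga7 with 183 counts. Itga6 and Itga3 differed by 0.11 ± 0.24 in log2(TPM + 1) (exact permutation test, p = 0.75, adjusted 0.75). Itga6 had 38 counts in mouse 2, and all other values of both genes were at or under 3 counts. Itga2, a platelet and epithelial collagen receptor subunit, had 15 counts in mouse 1 only. The leukocyte and platelet subunits were close to absent. Itga2b, which marks platelets and megakaryocytes, had 0 counts. None of the 9 platelet markers was above the cutoff, but Gp9 had 122 counts in mouse 1, and Gp1bb had 15 and Ppbp 5 counts in mouse 3. Itgae had 2 counts in mouse 2. Itgal, the α subunit of the leukocyte receptor LFA-1, was the exception with 188 counts in mouse 3, while its only β partner Itgb2 had 0 counts there. In that mouse, Mpo of the leukocyte list had 52 counts against at most 2 elsewhere, S100a9 had 26 counts and S100a8 had 4, and the part of leukocytes in the level of Itgal was not tested.

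In sum over each mouse, the α subunits reached 66.04, 74.78, 59.74 and 58.33 TPM, of which Itgav, Itga10 and Itga11 made up 97.14, 75.43, 69.88 and 78.98%. The 4 collagen-binding subunits Itga1, Itga2, Itga10 and Itga11 held 61.07 ± 9.343% of the α total, and Itgav held 24.53 ± 5.032% (SD, n = 4). The β total exceeded the α total in every mouse, by a factor from 3.241 to 3.873. Itgb1 alone was 2.861 ± 0.1491 times the sum of its 12 known α partners. Taken the other way round, as α over β, Itgav reached 0.3466 ± 0.1025 times the sum of Itgb3 and Itgb5. The β transcripts thus exceeded the α transcript here too.

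**Figure D2:**
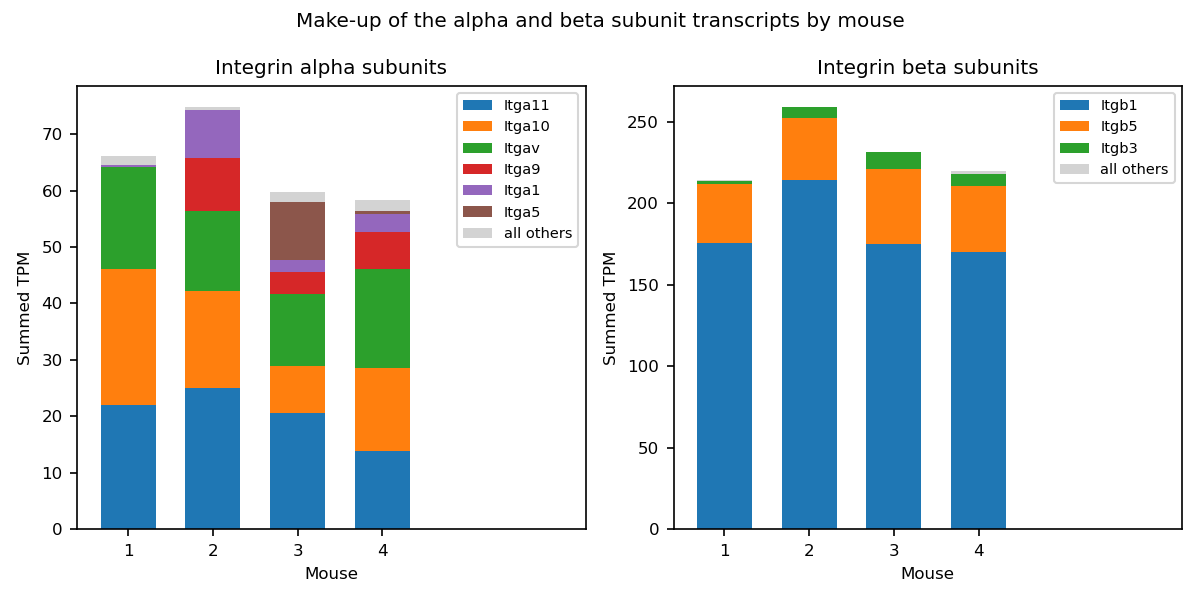
Summed TPM of the α subunits (left) and β subunits (right) in each of the 4 mice, stacked by gene, with genes below the cutoff other than Itga5 pooled in grey. Itgb1 fills between 75.59 and 82.66% of the β bar, and the α bar is shared by Itga11, Itga10 and Itgav with Itga9 and Itga1 nearly missing in mouse 1.

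Subunits were then joined to the 24 known pairs, and each pair to its main ligands as textbook knowledge gives them. In 7 of the 24, both subunits were above the cutoff. These were the collagen receptors α1β1, α10β1 and α11β1, the tenascin and osteopontin receptor α9β1, and αVβ1, αVβ3 and αVβ5. In every mouse both subunits were over 1 TPM for 5 of them, the exceptions being α1β1 and α9β1, whose α subunits were under 1 TPM in mouse 1. Each pair is described here by the TPM of its lower subunit. With full exon lengths its mean was highest for α11β1 with 20.32 ± 4.72 TPM. Then came α10β1 with 16.07 ± 6.541 TPM, and αVβ1 and αVβ5 with 15.7 ± 2.509 TPM. This order was not firm, since Itga11 was above Itga10 in 2 of 4 mice. With its unshared length Itga10 had 23.15 ± 9.509 TPM, which would place α10β1 first by the mean. The length of the longest transcript would instead place αVβ1 and αVβ5 first. With that length Itgav had 18.68 ± 2.891 TPM, Itga11 had 16.4 ± 3.814 TPM and Itga10 had 12.89 ± 5.17 TPM. For αVβ3 the lower subunit was Itgb3 in every mouse, with 6.502 ± 3.583 TPM. Since Itgb1 exceeded each α subunit and Itgav serves 3 of the pairs, the levels of pairs that share a subunit are not independent of each other.

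All 7 pairs had at least 1 listed ligand above the cutoff in the same cells. For α11β1 and α1β1 these included Col1a1, the main chain of bone collagen, with a median of 26910 TPM, and for α11β1 also Col1a2, with 11530 TPM, and Col3a1, with 15.62 TPM. For α10β1 all 5 listed chains passed, with Col2a1, the collagen of cartilage, the highest at 208.5, 386.2, 136.5 and 394.9 TPM. The basement membrane chains Col4a1 and Col4a2, which bind α1β1 and α10β1, were lower and uneven, with 8.24, 63.71, 14.42 and 7.247 TPM for Col4a1. For αVβ3, 9 of 10 listed ligands passed, among them Spp1 (osteopontin) with a median of 42720 TPM, Ibsp (bone sialoprotein) with 12120 TPM, Dmp1 with 924.6 TPM and Fn1 (fibronectin) with 64.96 TPM. The missing ligand was Vtn, vitronectin, a liver protein that reaches tissues by the blood, with 0, 3, 175 and 0 counts. For α9β1 the highest ligands after Spp1 were Tnc (tenascin C), with 306.7 TPM, and Vcam1, with 65.9 TPM.

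Ligand transcripts were also present for pairs with 1 or both subunits under the cutoff. Of the 17 pairs without both subunits above the cutoff, 15 had at least 1 listed ligand above it, and the exceptions were α6β4 and αEβ7. Fn1 had at least 50.94 TPM in every mouse, whereas Itga5 was over 1 TPM in mouse 3 only. Of the laminin chains, 5 of 11 passed the cutoff, namely Lama4, Lamb1, Lamb2, Lamc1 and Lamc3, with Lamb2 the highest at 29.82, 38.62, 27.66 and 19.84 TPM. The laminin receptor α subunits Itga3, Itga6 and Itga7 did not pass, whereas their β partner Itgb1 did. Itga4 of the VCAM1 receptor α4β1 did not pass either, beside Vcam1 at 30.17, 196.7, 67.44 and 64.37 TPM. Nor did both subunits of the leukocyte integrins with Itgb2, beside Icam1 at 6.518, 12.08, 2.681 and 0 TPM. A ligand need not act on the cell that makes it. A present ligand beside a receptor subunit under the cutoff therefore describes the RNA of these cells only. Across the 50 ligand genes, 35 (70%) were above the cutoff, against 44.2% of the protein-coding genes. They were made up of 12 of 12 collagen chains, 5 of 11 laminin chains, 14 of 20 RGD-containing and related proteins and 4 of 7 cell surface proteins. Of the collagen chains, 10 were over 1 TPM in every mouse, and Col9a1 had a median of 1.015 TPM. The ligand lists were chosen with earlier results of these data known, so their share is no measure of enrichment.

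**Figure D3:**
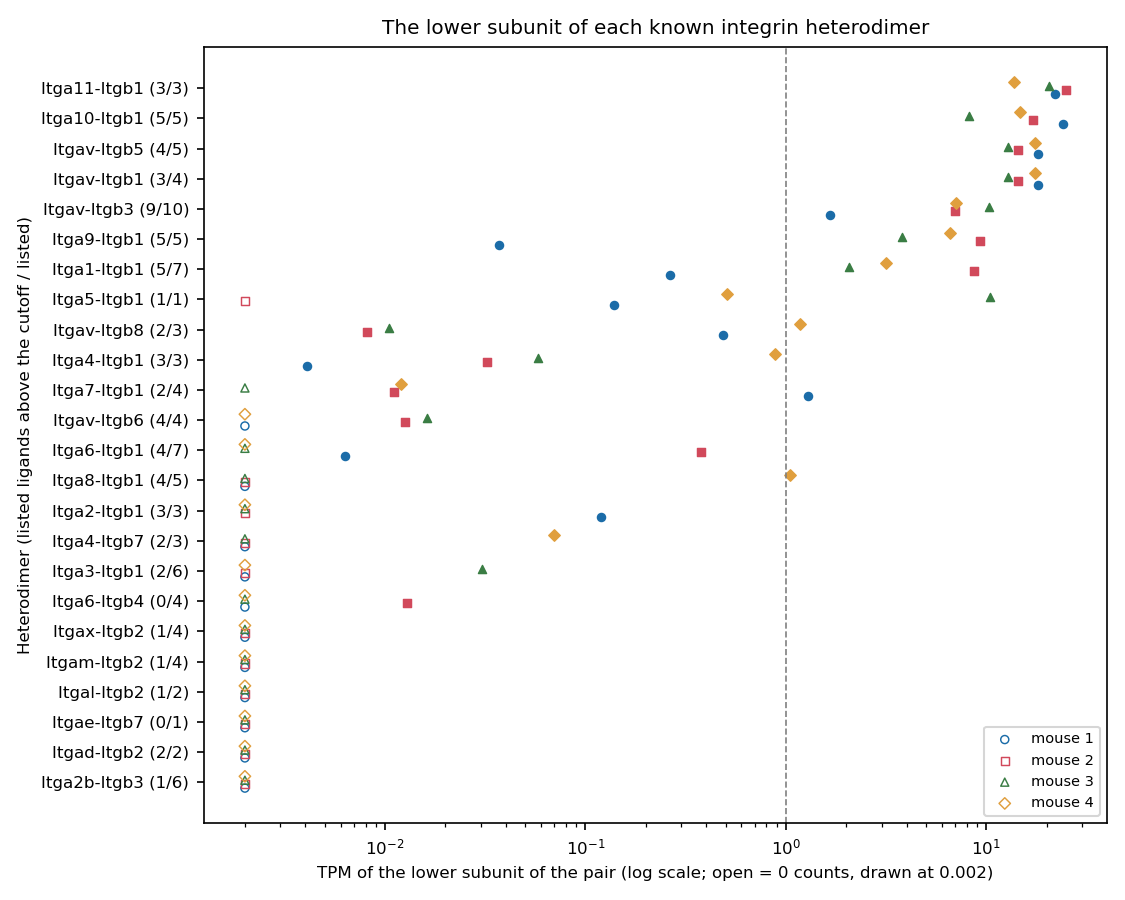
TPM of the lower subunit of each of the 24 known heterodimers in the 4 mice on a log scale, with the number of listed ligands above the cutoff out of those listed in brackets and open symbols for 0 counts. The 7 pairs at the top have medians over the dashed line at 1 TPM, and the 4 pairs with Itgb2 are at 0 counts in every mouse although each has a ligand above the cutoff.

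Of the proteins that bind the β tail, one member of each family carried most of the transcript. Tln1, the talin of most cells, had 22.76, 32.19, 37.85 and 9.794 TPM, and Tln2, the talin of muscle and brain, had 1.895, 7.037, 4.215 and 3.911 TPM. Fermt2 (kindlin-2), the mesenchymal kindlin, had 23.99, 67.86, 39.33 and 30.52 TPM. Fermt1, the epithelial kindlin, never exceeded 1 count, and Fermt3, the kindlin of blood cells, had 275 counts in mouse 3 and 0 in the others. Fermt2 was therefore at least 599.1-fold higher than Fermt1 in every mouse when Fermt1 was set to 3 counts per library. The talin difference was 2.28 ± 0.88 in log2(TPM + 1), that of Fermt2 over Fermt3 was 4.79 ± 1.10 and that of Fermt2 over Fermt1 was 5.26 ± 0.63, each seen in 4 of 4 mice (p = 0.125 in the exact permutation test, adjusted 0.163, for all).

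The ILK complex had the same form. Lims1 (PINCH-1) had 41.96, 101, 50.95 and 30.09 TPM, while its paralog Lims2 had 166 counts in mouse 1 and 0 in the others. Parva (α-parvin) had 8.249, 20.91, 16.2 and 8.394 TPM, while Parvb (β-parvin) had 121 counts in mouse 3 and at most 1 elsewhere. Lims1 exceeded Lims2 by 5.18 ± 1.38 and Parva exceeded Parvb by 3.40 ± 0.72, in 4 of 4 mice each (p = 0.125 in the exact permutation test, adjusted 0.163, for both). Ilk (ENSMUSG00000030890, GRCm38 chromosome 7, from 105736592 to 105742925, plus strand, 8 exons), the core of the complex, had 27.32, 16.08, 22.78 and 10.93 TPM. This value is uncertain. Of its exonic bases, 76.7% lie under Taf10 and 12.9% under Rrp8, both on the opposite strand, and no strand option is named for the counting, which leaves 283 of 2744 bases to Ilk alone. Divided by these 283 bases, the same counts gave 178.6 ± 66.89 TPM. Ilk was below Lims1 in 4 of 4 mice with the full length, by -1.42 ± 0.84, and above it on average with the unshared length, by 1.78. Ilk was above Parva in 3 of 4 mice with the full length, with a difference of 0.52 ± 0.82 (p = 0.375 in the exact permutation test, adjusted 0.443), and with the unshared length this difference was 3.72 ± 0.83. The place of Ilk among its partners therefore depended on the length used.

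**Figure D4:**
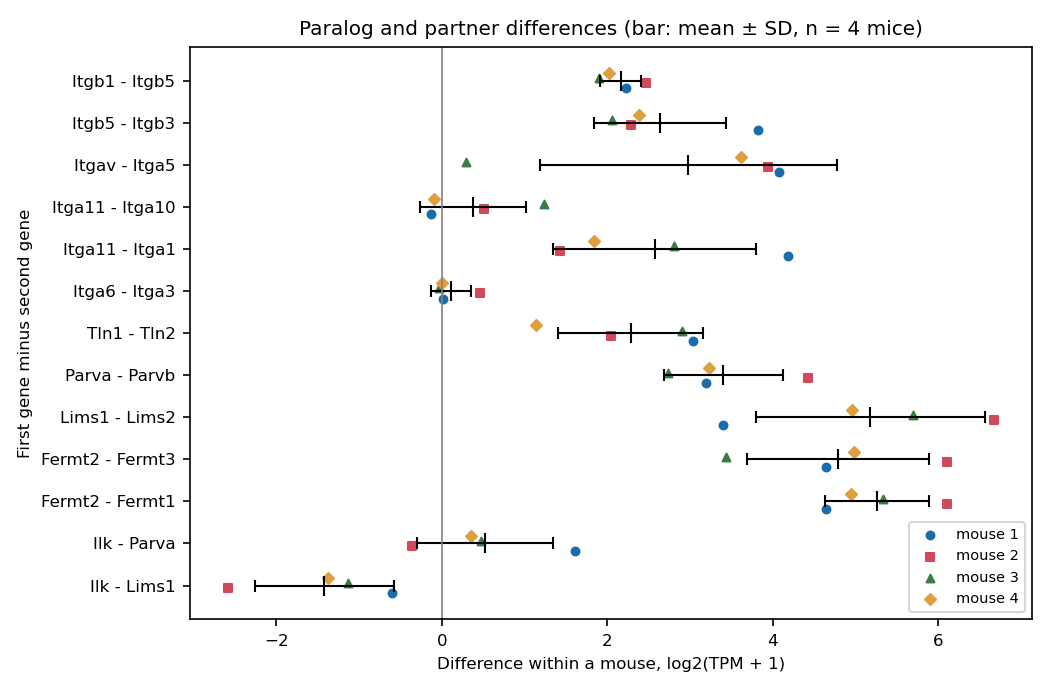
Difference in log2(TPM + 1) between the first and the second gene of each of the 13 comparisons, taken within a mouse, with a symbol for each of the 4 mice and the mean ± SD as a bar. For 9 comparisons every mouse is to the right of 0, for Ilk minus Lims1 every mouse is to the left, and for Itga11 minus Itga10, Itga6 minus Itga3 and Ilk minus Parva mice fall on both sides or at 0.

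The genes of zyxin, focal adhesion kinase, vinculin and paxillin had lower medians than Lims1, Fermt2, Tln1, Ilk and Parva. Zyx (zyxin), found at mature adhesions under tension, had 4.745, 4.67, 10.94 and 13.39 TPM. Ptk2 (focal adhesion kinase) had 2.668, 0.1066, 5.54 and 2.837 TPM, and Vcl (vinculin) had 1.624, 7.353, 2.332 and 0.2953 TPM, so that 1 mouse of each was under 1 TPM. Pxn (paxillin), with 0.1526, 0.06581, 1.652 and 4.216 TPM, had a median of 0.9025 TPM and missed the cutoff narrowly. Vcl shares 25.5% of its exonic bases with Ap3m1 on the opposite strand, and the same counts divided by the unshared bases gave 3.716 ± 3.955 TPM. Ordered by median TPM with full lengths, the 9 focal adhesion genes above the cutoff ran from Lims1 over Fermt2, Tln1, Ilk, Parva, Zyx, Tln2 and Ptk2 to Vcl, and with its unshared length Ilk would come first at a median of 179 TPM. Of the neighbours in the order with full lengths, only Lims1 and Fermt2 differed by more than their spread, by 0.42 ± 0.34 in log2(TPM + 1) in 3 of 4 mice. This step also depended on the length used. With the length of the longest transcript, Fermt2 had a median of 43.13 TPM against 40.93 TPM for Lims1. Ptk2 then had a median of 5.404 TPM against 4.816 TPM for Tln2.

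For context, 42 other genes of focal adhesions were examined, from Src family kinases to actin crosslinkers. Of these, 35 (83.3%) were above the cutoff, against 44.2% of the protein-coding genes, with a median of 9.229 TPM over the list. The list was chosen with earlier results of these data known, so its share is no measure of enrichment. Rap1b, a small GTPase that recruits talin, was the highest with 91, 90.98, 125.7 and 86.3 TPM. Lpxn (leupaxin), best known from blood cells, and Ptk2b (Pyk2), a relative of focal adhesion kinase, had 0 counts in every mouse. The talin recruiter Apbb1ip (RIAM), also of blood cells, had 77 counts in mouse 4 and at most 1 elsewhere. Trip6 and Tgfb1i1 (Hic-5), relatives of zyxin and paxillin, had 55.38 ± 21.9 and 29.98 ± 11.19 TPM, above the means of 8.437 ± 4.422 TPM for Zyx and 1.522 ± 1.938 TPM for Pxn.

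Members differed in how evenly they were measured across mice. Itgb5, Itgb1, Itgav and Itga11 had coefficients of variation of 10.56, 11.17, 15.98 and 23.22%. Among genes of their level class, 3.15% had a lower value than Itgb5, 13.7% than Itgb1, 8.67% than Itgav and 19.2% than Itga11. The median was 42.36% for all 4673 genes with a mean from 10 to 100 TPM and 40.71% for the 9 members in that class. From 1 to 10 TPM it was 89.61% for 8584 genes and 80.27% for 9 members, where counting error gives 8.051%. Thus the spread of members as a whole was near that of other genes of the same level. Among the leading integrin subunits, Itga10 was less even, at 40.71%, with 47.5% of its class lower.

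At the uneven end, 5 of 40 members were over 1 TPM in 1 mouse and at or under 3 counts in each of the others. These were Itga7 and Lims2 in mouse 1, Parvb and Fermt3 in mouse 3, and Itga8 in mouse 4. This pattern held for 5.88% of all genes and 5.53% of the protein-coding genes. More broadly, 1 mouse lay apart from the other 3 by Dixon's gap test for 12 of the 30 members with over 3 counts in a mouse, and for 30.2% of all such genes. In mouse 3, which had Fermt3 as well as Itgal, the leukocyte markers summed to 4.095 TPM, the platelet markers to 0.747 TPM and the erythroid markers to 1708 TPM, and Mpo was at its highest with 0.8789 TPM. In mouse 1, which had Itga7, Lims2 and Itga2, the platelet markers summed to 7.95 TPM against 0, 0.747 and 0 TPM in mice 2 to 4, and the erythroid markers were at their highest. The part of other cells in these transcripts was not tested.

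The levels of Itga1 and Itga9 followed the same order of mice as Lepr, the leptin receptor that marks stromal cells around marrow vessels. Lepr had 31.9, 120, 44.5 and 64.8 TPM in mice 1 to 4, so that mouse 2 was the highest, then mice 4 and 3, and mouse 1 the lowest. This order was met by 2 of the 17 members above the cutoff, against 3.98% of all genes above it. Of the 6 marrow stroma markers, it was met by Lepr itself, Ebf3 and Foxc1. Prrx1 was highest in mouse 1 and lowest in mouse 2, with 19.41, 10.57, 17.95 and 12.02 TPM. Pdgfra had 38.44, 48.24, 30.7 and 41.66 TPM, and Cxcl12 had 983, 4329, 2224 and 1079 TPM. Both were highest in mouse 2 but in another order. The comparison was chosen after the values had been seen, and 4 mice allow no correlation. The summed marrow stroma markers were 1091, 4580, 2345 and 1236 TPM, in another order. Whether the make-up of the sorted pools has a part in the levels of Itga1 and Itga9 was not tested.

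**Figure D5:**
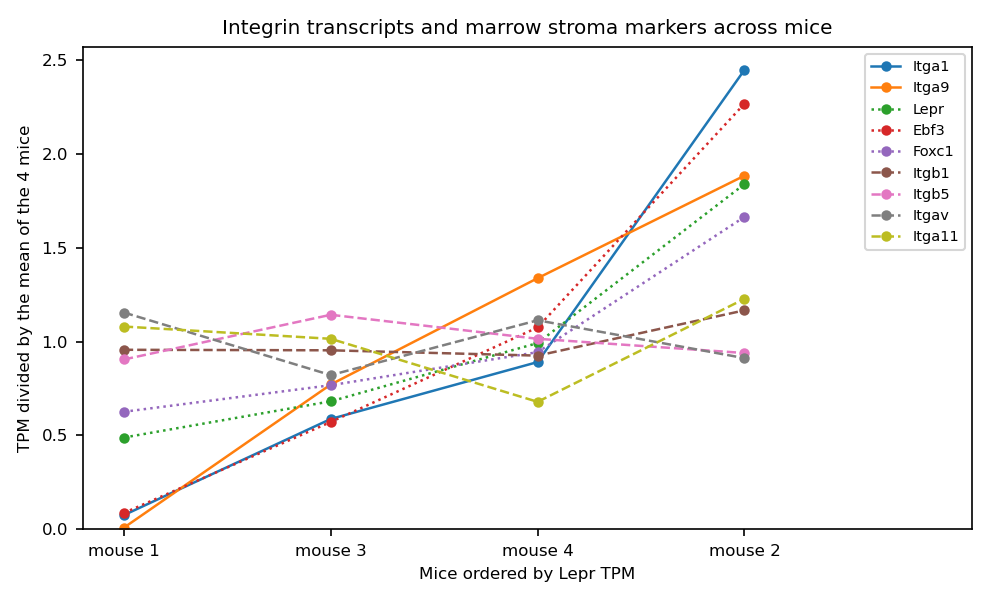
TPM of 4 even integrin transcripts (dashed), of Itga1 and Itga9 (solid) and of 3 marrow stroma markers (dotted), each divided by its mean over the 4 mice. Mice are ordered by their Lepr level. The markers drawn are the 3 of 6 that have this order, and Pdgfra, Cxcl12 and Prrx1, which have other orders, are not drawn. Itga1 and Itga9 run from nearly 0 in mouse 1 to their highest values in mouse 2, whereas Itgb1, Itgb5, Itgav and Itga11 stay near their means.

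The start sites of members were described by their CG dinucleotides, which are dense at the promoters of many widely used genes. A RefSeq window of 300 bases around the start (250 before and 50 after, GRCm38.p6) was found for 27 members, and 13 others had none. The motif searched was CG, which reads the same on both strands. At least 15 CG were held by 10 of the 13 members above the cutoff (76.9%) and 3 of the 14 below it (21.4%), near the 74.7% and 26.5% of protein-coding genes above and below the cutoff. The members above the cutoff with fewer than 15 CG were Itga10 with 6, Itga1 with 12 and Itga9 with 10, but the Itga9 window lies 105002 bases inside the annotated gene and so describes an internal start. The 250 bases before the start are shown for Itgb1 as the highest member (chr8:128685404-128685653, plus strand), for Itga10 as the member above the cutoff with the fewest CG (chr3:96645334-96645583, plus strand), and for Itgax as a leukocyte subunit with 0 counts (chr7:128129300-128129549, plus strand), with each CG in capitals.
Itgb1: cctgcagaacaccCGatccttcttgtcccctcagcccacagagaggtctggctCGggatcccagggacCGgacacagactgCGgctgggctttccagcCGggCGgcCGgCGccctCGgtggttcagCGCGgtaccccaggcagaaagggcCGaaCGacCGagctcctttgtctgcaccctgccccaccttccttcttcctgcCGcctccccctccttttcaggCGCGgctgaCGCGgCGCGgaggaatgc
Itga10: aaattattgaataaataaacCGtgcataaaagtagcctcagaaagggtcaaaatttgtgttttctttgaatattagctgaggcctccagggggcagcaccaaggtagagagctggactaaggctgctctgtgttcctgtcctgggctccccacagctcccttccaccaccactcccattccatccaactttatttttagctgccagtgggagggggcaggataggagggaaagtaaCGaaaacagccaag
Itgax: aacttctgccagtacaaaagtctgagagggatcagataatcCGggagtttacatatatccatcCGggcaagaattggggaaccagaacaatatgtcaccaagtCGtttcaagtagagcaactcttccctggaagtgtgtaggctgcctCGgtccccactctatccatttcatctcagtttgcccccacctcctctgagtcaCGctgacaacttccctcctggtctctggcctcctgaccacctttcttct
These stretches hold 21 CG before Itgb1, 2 before Itga10 and 5 before Itgax. The 3 were chosen after their values had been seen, and the count of CG describes the sequence only.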

How the data were processed

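RNA-seq counts of 4 libraries, 1 per mouse, were used. Per the paper's supplementary methods and the submitters' processing notes, the authors demultiplexed reads with bcl2fastq 2.20.0, aligned them to GRCm39 with STAR 2.7.10, merging overlapping mates, and used featureCounts of Subread 1.6.5 to count the uniquely mapped pairs per exonic region of a gene. They deposited raw counts, without normalization, for 56980 genes. No strand option is named.

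Python 3.11.15, numpy 2.4.6 and pandas 2.3.3 were used to compute TPM from merged exon lengths of GENCODE M21 on GRCm38. Where the exons of a gene differ between the builds, its TPM carries the ratio of both lengths as an error. Coordinates are those of GRCm38 throughout. The 4855 genes without a length, which took from 1.85 to 3.86% of a library, were left out. The TPM code was tested on simulated data. A median above 1 TPM over the 4 mice was called above the cutoff. A floor of 3 counts was used, which covers counting error only. Comparisons between genes used the within-mouse difference in log2(TPM + 1) tested exactly over all sign flips (a two-sided permutation test), and Benjamini-Hochberg adjustment over 13 comparisons. Shared exons were read from the annotation and near-identical copies searched with BLAST 2.17.0 at 95% identity over at least 100 bases. TMM factors came from edgeR 4.0.16 in R 4.3.3. Every member is accounted for, those above the cutoff by name. Ligands and other focal adhesion genes are named when highest in their list, part of a pair, or at no more than 3 counts in any mouse. The members, lists, pairs and alternatives were chosen with earlier results of these data known.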

Additional observations from a re-analysis of the deposited data

Results flagged for a closer look

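In 12 of 35 values checked, 1 mouse lay apart from the other 3, with a gap to the nearest of them that took more of the whole range than the critical value of Dixon's test for 4 samples. All 12 were members, out of 30 members checked. Chance gives about 1 in 20 for normally distributed values, or 1.75 of 35, but of the 19913 genes with over 3 counts in a mouse 30.2% had 1 mouse apart in this way. The 10 members with no mouse above 3 counts were not checked. In all 12 the mouse apart was the highest. It was mouse 1 for Itga2 (1 of the range), Itga7 (0.991) and Lims2 (1), mouse 2 for Itga6 (0.983) and Itgb1 (0.871), mouse 3 for Itga5 (0.951), Itgal (0.947), Parvb (0.987) and Fermt3 (1), and mouse 4 for Itga4 (0.938), Itga8 (1) and Itgb4 (0.979). No mouse accounts for most of them. Itgb1 is the only one of the 12 above the cutoff, with 214 TPM in mouse 2 against at most 175.4 TPM elsewhere. The cause was not tested.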

How the results depend on the processing

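Over 15 alternatives, the number of members above the cutoff lay between 13 and 19, of heterodimers with both subunits above it between 5 and 8, of ligands between 27 and 37 and of other focal adhesion genes between 28 and 37. The share of Itgb1 in the β total stayed between 78.25 and 80.61%. The share of Itgav in the α total rose to 30.98% with the length of the longest transcript and to 35.49% without a length. Requiring every mouse to be over 1 TPM left 3 α subunits and dropped Itga1, Itga9, Vcl and Ptk2. Pxn passed with the longest transcript, without a length, without the 10 highest genes, by the mean, at 0.5 TPM, and without mouse 1 or mouse 2. Itgb8 passed without a length and Itga5 by the mean. Of the 13 differences between genes, 4 changed sign. Ilk minus Parva became -1.29 without a length. With unshared exon bases as the length, an alternative chosen after seeing the data, Itga11 minus Itga10 became -0.18 and Ilk minus Lims1 became 1.78, since that length is shorter for Itga10 and Ilk. Itga6 minus Itga3, both under 1 TPM in every mouse, lay between -0.01 (without mouse 2) and 0.16 when mice were left out in turn. No paired analysis was possible because the libraries form only 1 group, so no mouse has a counterpart in another group. The differences between genes are taken within a mouse under every setting. With 4 mice, no exact test could reach p under 0.05. The annotation behind the lengths is of another build than the counts, and amplified copies of cDNA are not independent molecules.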
